A study of Mus musculus with 9 samples.

Results

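The genes described here are osteopontin (Spp1), its receptor Cd44, the matrix metalloproteases Mmp9, Mmp14 and Mmp19, the metalloprotease inhibitor Timp2 and the membrane-anchored proteases Adam8, Adam10 and Adam17. They were chosen by gene symbol, and all 9 symbols were found once among the 50600 genes of the deposited tables. The RNA came from cultures of RAW-Blue, an established line of mouse macrophages that carries a secreted reporter for NF-kappaB and AP-1 activity. The labels give 9 samples in 3 groups: cells given lipopolysaccharide (LPS, the bacterial glycolipid that TLR4 recognises) at 1 µg/ml for 24 hours, cells kept for 16 hours with exosome-like nanovesicles from Peucedanum japonicum, a plant, and then the same dose of LPS (LPS-PjELNs), and cells with no treatment (None). All groups were grown in medium with serum, Normocin, Zeocin, penicillin and streptomycin. The 3 LPS and the 3 None libraries were compared, while LPS-PjELNs cells were not analysed here. The labels do not state whether replicates are separate cultures, and the spread behind each p-value may be technical.

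Osteopontin is a secreted, phosphorylated glycoprotein that binds integrins and CD44 and is made in large amounts by activated macrophages and osteoclasts. Matrix metalloproteases (MMPs) are zinc enzymes that are made as inactive precursors and cut extracellular matrix and many secreted proteins, and TIMPs block them by binding the active site. ADAM proteases sit in the cell membrane and release the outer parts of other membrane proteins, among them the cytokine TNF, which ADAM17 frees from the macrophage surface.

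The proteases share one amino acid pattern, HExxHxxGxxH (x is any residue), which defines the family to which 6 of the 9 genes belong. The coding stretch of this pattern is shown for each, and its bases differ between the genes. It encodes the site that holds the catalytic zinc ion, and the capitals mark the codons of the 3 histidines that bind the metal. Each stretch is 33 bases long, was read from the GENCODE M21 transcripts (build GRCm38) and lies in coding exons.
Mmp9 (chr2:164951133-164951165, + strand, exon 8 of 13): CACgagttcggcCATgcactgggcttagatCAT
Mmp14 (chr14:54437627-54437659, + strand, exon 5 of 10): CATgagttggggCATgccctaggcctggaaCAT
Mmp19 (chr10:128795673-128795705, + strand, exon 5 of 9): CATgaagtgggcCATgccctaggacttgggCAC
Adam8 (chr7:139987893-139987925, - strand, exon 11 of 24): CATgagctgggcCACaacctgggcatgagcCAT
Adam10 (chr9:70754296-70761585, + strand, across the junction of exons 9 and 10 of 16): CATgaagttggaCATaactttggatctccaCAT
Adam17 (chr12:21336732-21336764, - strand, exon 11 of 19): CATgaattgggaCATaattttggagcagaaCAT
The coding sequences of Spp1, Cd44 and Timp2 hold 0 matches to this pattern. Spp1 carries instead the codons for the arginine-glycine-aspartate triplet through which osteopontin binds integrins, in capitals here with their neighbours.
Spp1 (chr5:104439469-104439501, + strand, exon 6 of 7): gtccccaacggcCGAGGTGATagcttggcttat

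The comparison of LPS with None asked how these genes respond to the inflammatory stimulus. Osteopontin rose to one of the most abundant transcripts of the cell, the gelatinase gene Mmp9 rose by the largest factor of the 9, and Adam8, Cd44 and Mmp19 rose by smaller factors. Mmp14 rose and Timp2 fell, both at very low levels. Adam10 and Adam17, the main sheddases, did not pass the test. In the quasi-likelihood test of edgeR, with p-values adjusted after Benjamini and Hochberg over 11916 genes and called under 0.05, 6 of the 9 members were higher in LPS, 1 was lower and 2 were not called. Of all genes tested 69.1% were called, 34% higher and 35.1% lower, so a call as such is common in this comparison. The share of higher genes among those called was 49.2%, or 30.6% with library totals as the scaling and 35.5% on unfiltered TPM values, and the median gene shifted by -0.26 and -0.20 on the log2 scale under them. In 7 of the 9 the CPM of the groups did not overlap, which held for 73.6% of all genes tested. The median log2 fold change of the 9 members was 1.45, against -0.03 for all genes tested. Mmp9, Mmp14 and Timp2 passed the filter on low counts only through the group in which they were high, so their presence among the tested genes is tied to a difference. Sequencing bulk RNA cannot tell a smaller number of cells with a transcript from less of it in each cell.

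**Figure D1:**
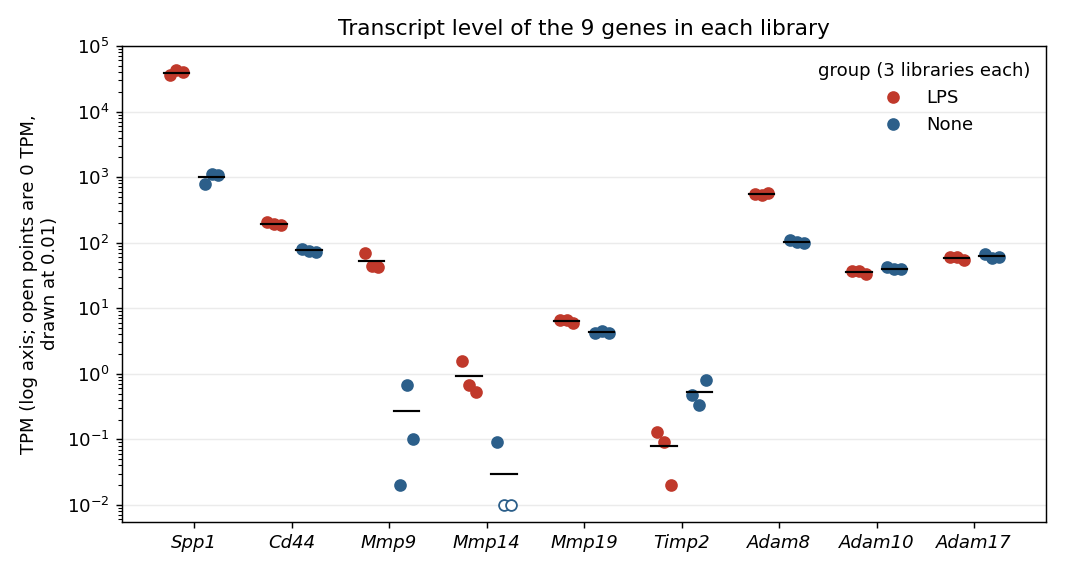
Transcript level of each gene in TPM on a log axis, with 1 point per library, LPS left of None and a bar at the mean of the 3 libraries. Spp1 stands at 36061 to 42362 TPM in LPS against 775 to 1119 TPM in None, whereas the points of Adam17 overlap between the groups.

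Library totals ran from 14650825 to 17665201 rounded counts. The LPS libraries had 14972 to 15121 genes detected and 2.462% to 2.696% of counts on mitochondrial genes, against 15523 to 15758 genes and 3.84% to 4.28% in the None libraries, with no overlap in either, and the part of these differences in the results was not tested. The LPS libraries differed from each other more than the None libraries did, and on the next axis of variation after the one separating the groups, which held 3.23% of the variance, LPS replicate 1 scored 22.98, apart from LPS replicates 2 (-7.49) and 3 (-16.0). The labelled cell type was checked against markers. Summed TPM of 9 macrophage markers was 19048 to 21284 in LPS and 11297 to 12975 in None, most of it from the lysozyme gene Lyz2 (16563 and 9714 TPM on average). Of these markers 4 were higher in LPS and 2 lower, namely Csf1r, the receptor gene for the growth factor of macrophages (log2 fold change -1.33), and Ptprc (-0.46), and the efferocytosis receptor gene Mertk had 2 counts in LPS and 0 in None. Of other cell types, Epcam and Krt8 (epithelium), Col1a2 and Col3a1 (fibroblasts), Cd3e, Cd3d, Cd8a and Ms4a1 (lymphocytes) and Ly6g and Mpo (neutrophils) had 0 counts in all 6 libraries. Summed fibroblast markers were at 0.41 to 1.72 TPM in LPS and 0 to 0.05 TPM in None, with 50 counts of Dcn in LPS and 0 in None. Summed lymphocyte markers were at 0.85 to 1.44 TPM in LPS and 0.23 to 0.32 TPM in None, carried by Cd79a, which rose with 54 counts in LPS and 13 in None. Summed endothelial markers were at 2.30 to 4.18 TPM in LPS and 3.45 to 5.05 TPM in None, carried by Vwf, which fell with 388 counts in LPS and 714 in None. Summed neutrophil markers were at 66.2 to 85.1 TPM in LPS and 0.66 to 1.29 TPM in None, nearly all of it from S100a8. The 7 osteoclast markers summed to 31.9 to 42.9 TPM in LPS and 38.7 to 42.8 TPM in None. Among them Dcstamp rose (log2 fold change 0.62), Ocstamp fell (-1.51), Acp5 was not called (-0.03), and Calcr had 0 counts in all 6 libraries. The part of other cell types in the results was not tested.

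Spp1 (chromosome 5, 104435118 to 104441050, + strand, GRCm38) had 36061, 42362 and 39558 TPM (abundance scaled for transcript length and library) in LPS replicates 1 to 3, against 775, 1119 and 1090 TPM in None replicates 1 to 3. The groups did not overlap, and replicate 1 was the lowest library of both. The fitted increase was 45.8-fold, with a log2 fold change of 5.52 ± 0.16 (SE) and edgeR adjusted p = 3.35e-11. Its 95% interval ran from 36.04-fold to 58.3-fold. Spp1 took 3.51%, 4.21% and 4.01% of all counts in the LPS libraries, against 0.0780%, 0.114% and 0.114% in the None libraries. By TPM it ranked first among all genes in LPS replicates 2 and 3 and second, behind the ferritin gene Fth1, in LPS replicate 1, against ranks 144 to 181 in None. With Spp1 left out of the library sizes, its log2 fold change was again 5.52, and the same 8232 genes were called. An unconfirmed transcript model on the same strand, Gm42793, shares 1252 bases with the Spp1 locus and held 1340 counts in LPS and 152 in None, summed over 3 libraries each.

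The Spp1 promoter is shown because this gene had the highest level of the 9. The window runs from 250 bases before to 50 after the RefSeq start (GRCm38.p6), and the capitals mark its single match among the motifs searched, a reverse-strand match to the interferon-response pattern (GAAA, any 2 bases, GAAA) that begins 157 bases before the start.
Spp1 promoter (chr5:104434861-104435160, + strand): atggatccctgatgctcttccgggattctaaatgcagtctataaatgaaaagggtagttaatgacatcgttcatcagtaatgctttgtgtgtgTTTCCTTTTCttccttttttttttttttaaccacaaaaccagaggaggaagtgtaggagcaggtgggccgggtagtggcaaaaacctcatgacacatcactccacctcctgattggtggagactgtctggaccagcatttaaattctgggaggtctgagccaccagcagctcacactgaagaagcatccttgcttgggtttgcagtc
Of the 9 genes 7 had an entry in the RefSeq promoter table, with 8 windows in all since Spp1 has another start. Both strands were searched for this pattern, the kappaB pattern (GGGA, any 4 bases, CC), the AP-1 pattern TGANTCA, the CRE pattern TGACGTCA, the E-box CACGTG, the STAT pattern TTCNNNGAA and the GC box GGGCGG. Among all 32851 windows of the table, the interferon-response pattern was found in 3.44%, the kappaB pattern in 20.7%, TGANTCA in 7.81%, TGACGTCA in 1.79%, CACGTG in 7.15%, TTCNNNGAA in 8.30% and GGGCGG in 35.7%. The kappaB pattern was present in the windows of Mmp14, Timp2 and Adam10, which were higher, lower and not called. The GC box was present in those of Cd44, Mmp14, Timp2, Adam8, Adam10 and Adam17, and the E-box in that of Adam10.

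Cd44 (chromosome 2, 102811141 to 102901665, - strand) encodes the membrane receptor for hyaluronan, the long sugar chain of loose matrix, and also binds osteopontin. It had 204, 194 and 185 TPM in LPS replicates 1 to 3, against 80.3, 75.3 and 72.2 TPM in None replicates 1 to 3. The groups did not overlap, and the highest LPS and the highest None library was replicate 1. Cd44 rose 2.74-fold, with a log2 fold change of 1.45 ± 0.08 (SE), a 95% interval from 2.44-fold to 3.08-fold and edgeR adjusted p = 6.55e-09. Within a library, Spp1 exceeded Cd44 by 7.65 ± 0.17 on the log2(TPM + 1) scale in LPS and by 3.68 ± 0.36 in None (SD, n = 3 each). The difference between the groups, 3.98, had a two-sided exact permutation p of 0.1, which is the smallest that 3 against 3 libraries can give.

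Mmp9 (chromosome 2, 164940780 to 164955850, + strand) encodes gelatinase B, a secreted enzyme that cuts denatured collagen and basement membrane collagen. It had 2431, 1499 and 1546 counts in LPS replicates 1 to 3, against 1, 4 and 3 counts in None replicates 1 to 3. On the length-scaled measure these were 69.4, 43.8 and 42.9 TPM in LPS and 0.02, 0.68 and 0.10 TPM in None. LPS replicate 1 stood above the other LPS libraries, and no None library came near the lowest of them. The fitted increase was 888-fold, with a log2 fold change of 9.79 ± 0.32 (SE), a 95% interval from 552-fold to 1429-fold and edgeR adjusted p = 8.29e-11. With 8 counts in None, the ratio of scaled counts was 937, with an exact 95% counting interval from 475 to 2172. The fitted interval is narrower than the counting interval, so the fitted SE understates the error at so few counts. The log2 fold change of Mmp9 was 9.55 without LPS replicate 1. Of 6 neutrophil markers, S100a8, which macrophages can share, had 642 counts summed over LPS and 8 over None. S100a9 had 4 and 0, Camp 1 and 0, Elane 1 and 5, and Ly6g and Mpo 0 in all libraries. The part of other cells in the Mmp9 counts was not tested.

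Mmp19 (chromosome 10, 128790910 to 128800824, + strand), a secreted protease with basement membrane substrates, had 6.62, 6.65 and 5.87 TPM in LPS and 4.23, 4.53 and 4.2 TPM in None, each in the order of replicates 1 to 3. The groups did not overlap. Mmp19 rose 1.75-fold, with a log2 fold change of 0.80 ± 0.10 (SE) and edgeR adjusted p = 1.91e-05. It overlaps Tmem198b over 789 bases on the other strand, a gene with 530 counts in LPS and 537 in None, and the strand setting of the counting is unknown here. Among the 3 MMP members, Mmp9 held 87.4% ± 1.9 of the summed TPM in LPS and 5.28% ± 6.80 in None, and Mmp19 held 11.2% ± 2.3 in LPS and 94.0% ± 6.1 in None (SD, n = 3 each). The Mmp9 share in None ran from 0.46% to 13.1% and rests on 1, 4 and 3 counts in None replicates 1 to 3. It is therefore a rough value.

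Mmp14 (chromosome 14, 54431612 to 54445364, + strand) encodes a collagenase anchored in the cell membrane, known for cutting collagen at the cell surface and for activating the precursor of MMP2. It had 49, 20 and 17 counts in LPS replicates 1 to 3, against 3, 0 and 0 in None replicates 1 to 3. LPS replicate 1 held 49 of the 86 LPS counts, and the 3 counts of None were all in replicate 1. The ratio of scaled counts was 39.3, with an exact 95% counting interval from 12.99 to 194, and the fitted log2 fold change was 5.10 ± 0.75 (SE), with edgeR adjusted p = 6.16e-05. Without LPS replicate 1 the log2 fold change of Mmp14 was 4.49. Without None replicate 1 it was 8.05, a value that turns on edgeR's prior count because None then has 0 counts.

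Timp2 (chromosome 11, 118301069 to 118355740, - strand) encodes an inhibitor that blocks MMPs and also bridges MMP14 and the precursor of MMP2. It had 3, 4 and 1 counts in LPS replicates 1 to 3, against 25, 18 and 24 counts in None replicates 1 to 3. The groups did not overlap, and both lay at under 1 TPM in every library. Timp2 fell 5.93-fold, with a log2 fold change of -2.57 ± 0.45 (SE) and edgeR adjusted p = 0.000237. The log2 fold change of Timp2 lay between -2.18 without LPS replicate 3 and -2.96 without LPS replicate 2. The log2(TPM + 1) ratio of Mmp14 to Timp2 was 0.80 ± 0.34 in LPS and -0.57 ± 0.24 in None (SD, n = 3 each), a difference of 1.36 with an exact permutation p of 0.1, the smallest possible. Both genes lay near or below 1 TPM, so the added 1 TPM makes this difference smaller. Their fitted log2 fold changes were 5.10 for Mmp14 and -2.57 for Timp2.

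Adam8 (chromosome 7, 139978932 to 139992562, - strand) encodes a leukocyte protease that is made by activated myeloid cells and cuts adhesion molecules. It had 551, 539 and 564 TPM in LPS replicates 1 to 3, against 109, 103 and 100.0 TPM in None replicates 1 to 3. The libraries of each group lay close together and the groups did not overlap. Adam8 rose 6.38-fold, with a log2 fold change of 2.67 ± 0.08 (SE), a 95% interval from 5.69-fold to 7.15-fold and edgeR adjusted p = 3.08e-11. It held 85.4% ± 0.9 of the summed TPM of the 3 ADAM members in LPS and 50.3% ± 0.9 in None (SD, n = 3 each).

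The Adam8 promoter window, from the same RefSeq table, is shown as that of the most expressed protease of the 9, with its single motif match, a reverse-strand GC box that begins 35 bases before the start, in capitals.
Adam8 promoter (chr7:139992513-139992812, - strand): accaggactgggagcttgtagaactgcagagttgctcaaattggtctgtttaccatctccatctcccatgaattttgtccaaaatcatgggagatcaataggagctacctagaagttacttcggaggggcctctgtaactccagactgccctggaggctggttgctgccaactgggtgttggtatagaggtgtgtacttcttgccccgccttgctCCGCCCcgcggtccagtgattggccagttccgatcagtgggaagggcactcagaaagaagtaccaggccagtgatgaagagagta
It had a GC content of 52.3%, against 73.3% in the Adam10 window, 70% in the Adam17 window and 45.3% in the Spp1 window.

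Adam10 (chromosome 9, 70678997 to 70780229, + strand) encodes the protease that cuts Notch receptors and many other membrane proteins. It had 148, 145 and 140 CPM (counts scaled to library size) in LPS replicates 1 to 3, against 147, 134 and 143 CPM in None replicates 1 to 3. The groups overlapped in CPM. The log2 fold change of Adam10 was 0.03 with a 95% interval from -0.12 to 0.18 and edgeR adjusted p = 0.671. The direction depended on the scaling. In TPM the LPS libraries held 36.5, 37.4 and 33.5 and the None libraries 42.0, 39.0 and 39.8, without overlap, and limma on log2(TPM + 1) without a filter gave -0.17 with an adjusted p of 0.0729. With scaling by library totals edgeR called Adam10 lower, with a log2 fold change of -0.22 and an adjusted p of 0.0104, a value close to the median shift of -0.26 that this scaling gives to all genes.

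Adam17 (chromosome 12, 21323509 to 21373632, - strand) encodes the TNF-converting enzyme. It had 60.1, 59.8 and 54.9 TPM in LPS replicates 1 to 3, against 67.4, 58.7 and 61.1 TPM in None replicates 1 to 3. The groups overlapped. The log2 fold change of Adam17 was 0.13 with a 95% interval from -0.03 to 0.29 and edgeR adjusted p = 0.141, and it was -0.13 with scaling by library totals and -0.10 on log2(TPM + 1). Adam17 overlaps the gene Iah1 over 311 bases on the other strand. The log2(TPM + 1) ratio of Adam10 to Adam17 was -0.69 ± 0.02 in LPS and -0.62 ± 0.05 in None (SD, n = 3 each), a difference of -0.07 with a two-sided exact permutation p of 0.2.

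**Figure D2:**
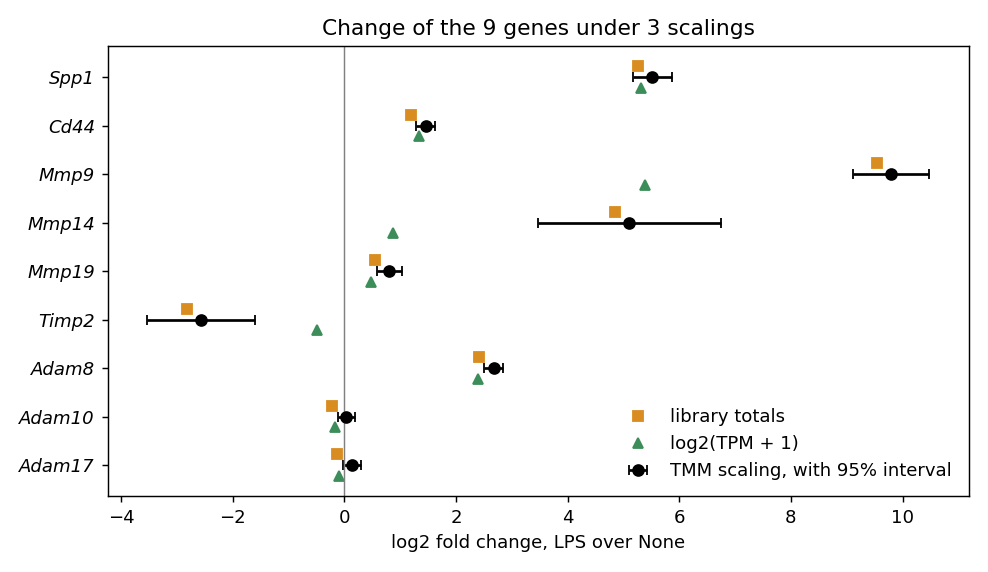
Log2 fold change of LPS over None for each gene with TMM scaling (black, 95% interval), scaling by library totals (squares) and log2(TPM + 1) values (triangles). For Mmp9, Mmp14 and Timp2 the interval drawn is narrower than the counting interval given in the text. Adam10 and Adam17 change sign between scalings, and the TPM values of Mmp9, Mmp14 and Timp2 lie nearer to 0 because the added 1 TPM exceeds their level in at least 1 of the groups.

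In LPS the order of mean TPM was Spp1, Adam8, Cd44, Adam17, Mmp9, Adam10, Mmp19, Mmp14 and Timp2, and the ranges of Adam17 and Mmp9 overlapped. In None the order was Spp1, Adam8, Cd44, Adam17, Adam10, Mmp19, Timp2, Mmp9 and Mmp14, where Timp2 and Mmp9 overlapped, as did Mmp9 and Mmp14. The 8 members other than Spp1 together held 929, 881 and 887 TPM in LPS and 303, 282 and 278 TPM in None.

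The members differed in how tightly replicates lay together. The coefficient of variation of CPM in LPS was 2.59% for Adam17, 2.82% for Adam10 and 3.13% for Adam8, against 27.6% for Mmp9, 57.7% for Timp2 and 60.5% for Mmp14. Counts per LPS library were 1 to 4 for Timp2 and 17 to 49 for Mmp14, against 18656 to 20152 for Adam8. Low counts by themselves raise this measure, and their part was not tested. Spp1 had 7.56% in LPS and 19.7% in None. LPS replicate 1 deviated from its group mean by 0.43 for Mmp9 and 0.87 for Mmp14 on the log2 CPM scale, but by -0.13 for Spp1 and 0.03 for Adam8. The library that stood apart on the next axis of variation was thus the highest LPS library for Mmp9 and Mmp14 and the lowest for Spp1. Whether the state of that library plays a part in these values was not tested.

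**Figure D3:**
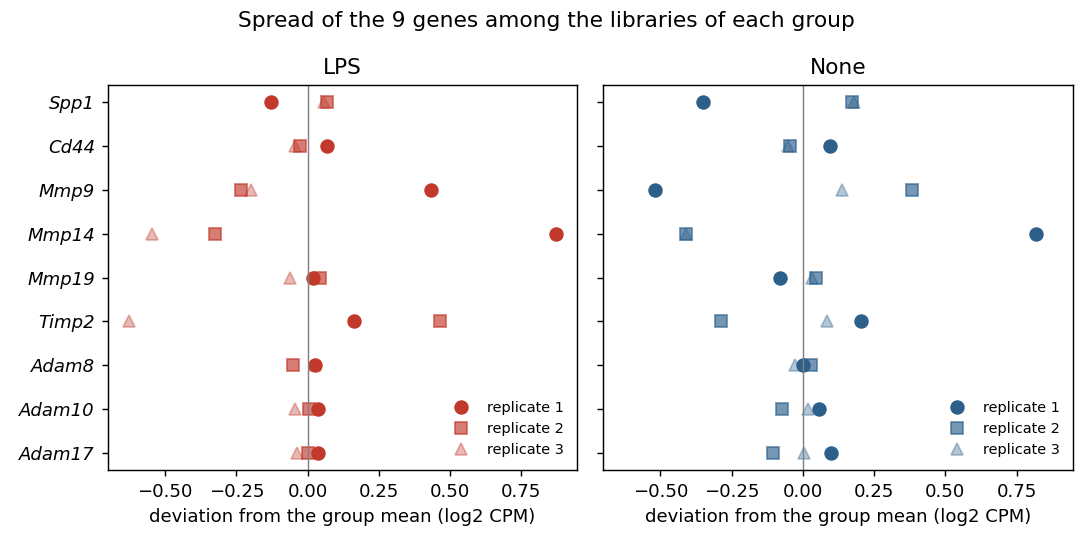
Deviation of each library from its group mean in log2 CPM (prior count of 2), for LPS in the left panel and None in the right panel, with 1 symbol per replicate. LPS replicate 1 lies at 0.43 for Mmp9 and 0.87 for Mmp14, while the ADAM genes stay within 0.11 of the mean in all libraries.

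The genes whose profile over the 6 libraries was most like that of a member were found by the root mean square difference in centred log2 CPM among 11907 other tested genes. These values carry a prior count of 2, which makes the change of a gene with few counts in a group smaller. Nearest to Spp1 were Prss50 (0.14), Ifi209 (0.18) and Usp18 (0.20). Their fitted log2 fold changes were 5.86, 9.46 and 5.45, against 5.52 for Spp1, so Ifi209 is near it only on the centred scale. Nearest to Mmp9 were the chemokine gene Ccl5 (0.27), the cytokine gene Lif (0.35) and the siderophore-binding Lcn2 (0.42), whose fitted log2 fold changes were 9.19, 10.35 and 12.63. Nearest to Adam8 were Sp140 (0.05), Sgtb (0.06) and Lilr4b (0.06), and nearest to Cd44 were Myadm, Cdk14 and Jak2, at 0.04 to 0.05. Among the nearest to Mmp14 were Msantd3 (0.18) and Errfi1 (0.35), and the nearest to Timp2 were Zfp455, Galnt4 and Zfp862-ps, each at 0.16 to 0.17. The nearest to Mmp19 were Tent5a, Prelid3b and Btbd10 (each 0.03), to Adam10 Sf3b6 (0.02), Psme3 (0.03) and Prkd3 (0.03), and to Adam17 Tmem167 (0.03), Csnk1d (0.03) and Dnajc14 (0.04).

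Lists of related genes are described next by counts over the genes tested, to be read beside the 34% higher and 35.1% lower among all genes. Mmp13, Timp1, Adamts4, Hbegf and Has1 passed the filter on low counts only through LPS, and Adam1a, Adamts13 and Tspan10 only through None, so their place among the tested genes is tied to their difference.

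Of 20 other MMP genes 3 had enough counts for a test, and 2 of them rose. Mmp13, a collagenase, rose 30.1-fold, with 4.63, 2.31 and 2.95 TPM in LPS against 0.08, 0.13 and 0.15 TPM in None. Mmp12, the macrophage elastase, rose 3.92-fold, with 4.97, 2.04 and 1.95 TPM in LPS against 0.59, 0.77 and 1.12 TPM in None, so LPS replicate 1 was again the highest. Mmp28 was not called, at a log2 fold change of -0.0048, and the other 17 MMP genes together held 16 counts in LPS and 38 in None, with Mmp2 at 3 and 7. The only inhibitor tested beside Timp2 was Timp1, which had 22, 19 and 26 counts in LPS and 0 in each None library. With 3 counts over the group taken as the limit for None, and the LPS counts taken as exact, Timp1 was at least 30.6-fold higher. It was called (edgeR adjusted p = 4.37e-06) and reached 2.88 ± 0.35 TPM in LPS (SD, n = 3).

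Of 11 other ADAM genes 3 were tested. Adam9 rose to 52.7 ± 2.2 TPM in LPS, against 32.9 ± 0.7 TPM in None, and Adam15 rose to 251 ± 15.7 TPM, against 150 ± 13.8 TPM (SD, n = 3 each), with log2 fold changes of 0.92 and 0.85. Adam1a fell by 3.39 on the log2 scale, with 5 counts in LPS and 76 in None. Of 13 genes of the secreted ADAMTS family 4 were tested. Adamts4 (3.49) was higher by log2 fold change, and Adamts13 (-3.21) and Adamts10 (-2.001) were lower. Adamtsl4 (2.37), which encodes an ADAMTS-like protein that is not a protease, was higher.

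The partners that bring ADAM10 and ADAM17 to the cell surface were tested in 7 of 9 cases, with 3 higher and 2 lower and a median log2 fold change of 0.19. Rhbdf2, which carries ADAM17 out of the endoplasmic reticulum, had 58.4, 58.5 and 55.6 TPM in LPS against 18, 17.7 and 15.9 TPM in None. It rose by a log2 fold change of 1.94 ± 0.07 (SE), with edgeR adjusted p = 2.17e-10, while Adam17 itself was not called. Rhbdf1 rose as well, with a log2 fold change of 1.12. Of the tetraspanins that pair with ADAM10, Tspan17 (0.68) rose, Tspan5 (0.19) was not called, and Tspan14 (-1.25) and Tspan10 (-4.15) fell by log2 fold change. Frmd8, which stabilises the Rhbdf proteins, was not called at -0.15, but was called lower with library totals (-0.41).

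Among 25 known or proposed substrates of these sheddases 16 were tested, with 9 higher and 4 lower and a median log2 fold change of 0.47. The growth factor gene Hbegf (6.14), the death receptor gene Fas (3.95), the cytokine gene Tnf (3.26) and its receptor gene Tnfrsf1b (2.96) had the largest increases. Il6ra, the receptor chain for interleukin 6, had the largest decrease at -2.40. Cxcl16 counts among the 9 higher at 0.28 and was not called without LPS replicate 1 (0.22), None replicate 2 (0.23) or None replicate 3 (0.21), nor with library totals (0.016) or on TPM (0.05).

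Of 10 genes listed for the activation of MMP and ADAM precursors 5 were tested, and 2 rose. Plaur, among them, encodes a receptor and not a protease. The urokinase receptor gene Plaur reached 605 ± 78.5 TPM in LPS, against 26.2 ± 0.9 TPM in None, a log2 fold change of 4.78. Furin, which encodes a protease that removes the inhibitory part of MMP14 and ADAM17, reached 211 ± 22.9 TPM, against 50.6 ± 5.3 TPM (SD, n = 3 each), a log2 fold change of 2.27. The protease genes Plau (urokinase, 0.17), Pcsk7 (0.13) and Ctsb (0.09) were not called, though Ctsb was called lower with library totals (-0.17).

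The integrin genes whose products bind osteopontin divided, with 3 of 5 tested higher and 2 lower. Itga5 (2.83) and Itgav (1.79) rose, while Itgb5 (-0.999) and Itga4 (-3.05) fell. Itga4 had 29.5 ± 3.7 TPM in LPS against 285 ± 24.6 TPM in None (SD, n = 3 each). Itgb1 was called higher at 0.23 but not without None replicate 2 (0.21), with library totals (-0.03) or on TPM (0.0027). Itgb3, the usual partner of Itgav in osteoclasts, had 1 count in LPS and 0 in None.

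Of 18 genes of hyaluronan turnover and CD44 partners 12 were tested, with 9 higher and 1 lower and a median log2 fold change of 1.22, which stayed at 1.22 with Has1 at its lower bound. The hyaluronan receptor gene Layn (5.96), the CD44-binding proteoglycan gene Srgn (3.33), the cell-surface hyaluronidase gene Tmem2, listed in the files under its newer symbol (2.67), and Stab1 (1.95) rose. Has1, a hyaluronan synthase, had 40 counts in LPS and 0 in None. It was at least 18.3-fold higher by the same limit, with the LPS counts again taken as exact. The receptor gene Hmmr fell by 1.42 on the log2 scale. The call of Hyal3 at 0.82 was lost without LPS replicate 1 (0.76), 2 (0.85) or 3 (0.85), without None replicate 2 (0.72) or 3 (0.78), in DESeq2 (0.84), with no filter on low counts (0.80), with library totals (0.56) and on unfiltered TPM (0.20).

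**Figure D4:**
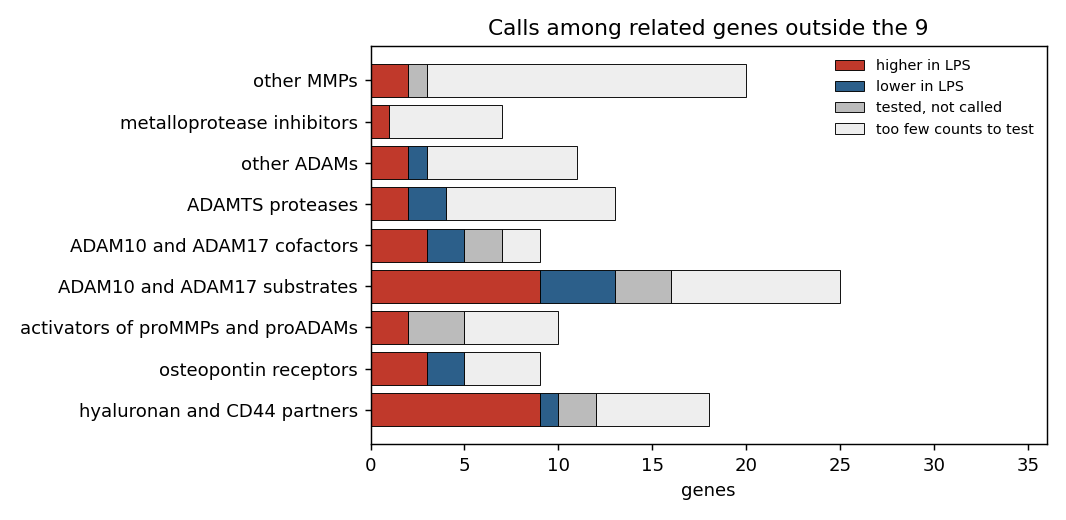
Number of genes in each of 9 lists of related genes that were higher in LPS, lower in LPS, tested but not called, or too low in counts to test. Of 122 genes 56 were tested, 33 were higher and 12 lower, and 17 of the 20 other MMP genes had too few counts.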

How the data were processed

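Total RNA was sequenced as paired-end reads and cleaned with SOAPnuke, per the labels' protocols. Tools in the submitters' processing notes include STAR 2.7.10a and RSEM 1.3.1, and the build is GRCm38. The deposited expected counts are the authors' estimated counts per gene, which need not be whole and were rounded here. The deposited TPM values were scaled for transcript length by the authors. Columns of 6 libraries matched the labels, and 12 further library columns did not and were not used. Genes without a symbol held 0.0231% to 0.0318% of counts. The strand setting of the counting is unknown here.

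The low-count filter was filterByExpr (edgeR 4.0.16, R 4.3.3; count minimum 10, total at least 15). Counts were scaled by TMM and tested with glmQLFTest, two-sided, with group as the single term and Benjamini-Hochberg adjustment at 0.05. SEs are the log2 fold change over the square root of F, a form that understates the error where a group holds few counts, as for Mmp9, Mmp14 and Timp2. CPM use TMM-scaled totals. Counting intervals cover counting error only. Floors of 3 counts cover the counting error of None alone, with the LPS counts taken as exact. Replicates differed beyond sampling noise (chi-square over its degrees of freedom, 3.29 to 17.5 per pair). The steps were also run on simulated counts in which few genes changed, unlike in these libraries, so that run does not test the scaling used here. Gene positions are from GENCODE M21, since the spans in the files differ from it for 6 of the 9 genes. The members, lists, motifs and alternatives were chosen with earlier results of these data known. The text names all members, of each list up to 5 called genes with the largest change, a fixed panel (Timp1, Rhbdf2, Tnf, Mmp12, Mmp13, Adam9, Adam15, Itgav, Itgb3, Itga4, Plaur and Tmem2) and the 3 genes most like a member; other list genes were named after their values were seen. A marker gene and a gene most like a member are not reported here. Alternatives were RLE factors, DESeq2 1.42.0, no filter, 1 CPM in 3 libraries, library totals, Spp1 left out of library sizes, limma 3.58.1 on log2 TPM with pseudocounts of 1 and 0.1, the replicate number as a block, and each library left out.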

Additional observations from a re-analysis of the deposited data

How the results depend on the processing

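Spp1, Cd44, Mmp9, Mmp19 and Adam8 kept their direction and their call under all 16 alternatives, and Mmp14 and Timp2 under the 14 in which they were tested; the TPM filter removed both. Adam10 turned to -0.22 with library totals (adjusted p = 0.0104 by edgeR, called), to -0.17 on each of the 3 TPM settings and to -0.0044 without None replicate 2, with 0.0640 as the highest value without 1 library. Adam17 turned to -0.13 with library totals and to -0.10 on each TPM setting. Genes called higher numbered 4052, against 2679 with library totals and 2672 or 2656 on filtered TPM with a pseudocount of 1 or 0.1. Members called lower numbered 1, against 2 with library totals and 0 on filtered TPM with either pseudocount, where Timp2 was not tested. The log2 ratio of Mmp14 to Timp2 differed between groups by 1.36 in TPM and by 2.33 in CPM, and could not be computed without a pseudocount because Mmp14 has libraries at 0 TPM. On log2(TPM + 1) the changes of Mmp9, Mmp14 and Timp2 were 5.39, 0.86 and -0.50, where the pseudocount exceeds their level in at least 1 group. With the replicate block, 4114 genes were higher and 4248 lower, against 4052 and 4180, and no call of a member changed, while Hyal3 was no longer called (0.82, edgeR adjusted p = 0.0527); same-numbered libraries correlated by -0.02 to 0.08 in their deviations, and not every library correlated best with its own number, so the numbers were not taken as pairs. Leaving out 1 library at a time gave 3722 to 4004 genes higher, 3785 to 4099 lower, and log2 ratio differences of 3.76 to 4.09 for Spp1 to Cd44, 1.17 to 1.47 for Mmp14 to Timp2 and -0.10 to -0.05 for Adam10 to Adam17. Depth limits the low group of Timp2 (8 counts in LPS), Mmp9 (8 in None) and Mmp14 (3 in None), each summed over 3 libraries.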

Other observations

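Some list genes with counts too low for a test also differed in sum. Of 122 list genes 56 were tested, and the genes named next were picked from the rest for their difference. Has3, also untested, had 17 counts in LPS and 20 in None. Areg, a growth factor that ADAM17 releases, had 29 counts in LPS and 1 in None, the protease gene Adamts7 had 16 and 1, the ADAM10 partner Tspan33 had 0 and 11, and Mmp23 had 5 and 15.

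The count that stands behind 1 TPM of a gene follows the transcript length used in the estimate. Relative to the median of 9579 well-counted genes, that length for Cd44, a gene with many splice forms, was 1.32 ± 0.02 in LPS and 1.39 ± 0.02 in None (SD, n = 3 each), without overlap between the groups. The ratio of 0.944 lies within the central 90% of those genes, from 0.839 to 1.11. For Mmp9 the relative length was 1.19 to 1.21 in LPS but 0.167 in None replicate 2, where 4 counts stood for 0.68 TPM, and the cause was not tested.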
